A study of Homo sapiens with 10 samples.

Results

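The 43 genes described here are the core machinery of DNA replication and S-phase entry: the MCM helicase, its loaders and activators, the sliding clamp and its loader, the replicative polymerases, the enzymes that make deoxynucleotides, the histone chaperone that follows the fork, and the E2F1 and cyclin E genes. They were matched by Ensembl identifier to the 26346 genes of the deposited tables. The tables hold 42 of the 43 under these identifiers, UHRF1 having no match, and all 42 passed the filter of a mean of at least 0.5 RPKM (reads per kilobase of transcript and M reads, M being 10 to the power 6), which left 13630 genes of the whole series for testing. Polyadenylated RNA came from EndoC-βH1, an insulin-secreting clonal line of human beta cells made from fetal pancreas with the SV40 large T antigen and telomerase. In 5 libraries the cells had received the siRNA siSR#2 against SRp55, a splicing factor encoded by SRSF6, and in 5 a control siRNA, and the series' design text counts 5 independent preparations of cells. Every library carries the large T antigen of the line, which binds RB proteins, and the labels name 1 siRNA against SRp55, so effects of that sequence on other transcripts and loss of SRp55 cannot be told apart. Replicate numbers 1 to 5 pair the libraries across the groups.

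DNA is copied in S phase. ORC, CDC6 and CDT1 load the MCM helicase on origins in G1, and CDC7 kinase, CDC45 and the GINS complex turn the loaded helicase into a moving one. RFC then opens the PCNA ring onto DNA, where it holds the polymerases and serves as a platform for other proteins. E2F factors switch on most of these genes once RB proteins are inactivated, and adult human beta cells in tissue rarely enter the cycle, unlike this line.

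SRSF6 stood at 23.8, 23.4, 25.3, 31.1 and 21.0 RPKM in SRp55 siRNA libraries 1 to 5, against 99.5, 99.5, 92.4, 99.7 and 99.99 RPKM in control siRNA libraries 1 to 5, so 25.3% of the control mean was left. Reads assigned to transcripts numbered 94.7 to 189.8 M per SRp55 siRNA library and 61.9 to 159.2 M per control siRNA library. They made up 76.8 to 96.5% of the total behind the RPKM values in SRp55 siRNA libraries and 74.2 to 90.9% in control siRNA libraries, and control 2 was the shallowest library. Markers of beta cells were present, with INS at 9520 ± 1414 RPKM in SRp55 siRNA libraries and 6597 ± 3464 RPKM in control siRNA libraries (SD, n = 5 each). Of the defining markers of other cell types, PPY, PRSS1, CELA3A, CTRB1, PNLIP, VIM, CDH5, KDR and CD3E were listed at 0 in every library, and an exact 0 can be a failed estimate. Other markers were present, with SST at 92.2 RPKM in SRp55 siRNA and 110 RPKM in control siRNA libraries on average. In the highest library the markers summed to 2973 RPKM for other islet cells, 99.7 for acinar and duct cells and 52.4 for mesenchymal, endothelial and immune cells.

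Of the 42 genes, 12 rose after SRp55 siRNA and none fell in limma on RPKM without a block, at a Benjamini-Hochberg adjusted p under 0.05 over all genes tested. The 12 were PCLAF, CDC6, RFC3, GINS2, E2F1, MCM4, TK1, ORC6, GINS4, RFC4, GINS1 and MCM5. They made up 28.6% of the 42, whereas 3.76% of all tested genes (513) were called higher and 1.25% (171) lower. Median-of-ratios scaling gave 433 higher and 500 lower, with 12 of the 42 higher, though not the same 12. GINS1 and GINS2 were not called under it, while RFC5 (limma adjusted p = 0.0499) and POLE were. Rescaling by the assigned reads gave 501 higher and 451 lower, with 14 of the 42 higher. The log2 fold change, given throughout as SRp55 siRNA over control siRNA relative to the median tested gene, had a median of 0.32 over the 42, and it was above that of the median tested gene for 37 and below it for CDC7, TYMS, CCNE2, MCM6 and RFC1. Limma's p-values test the values as deposited, in which the median tested gene rose by 0.11, and not the values relative to that gene. At an unadjusted p under 0.05, limma counted 31 of the 42 and 2986 of the 13630 genes. In bulk RNA, more cells in S phase and more of these RNAs per cell cannot be told apart.

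The count of calls depended on pairing, libraries and scale. With the replicate block, limma called 23 of the 42 higher (54.8%, against 9.39% of all tested genes) and none lower, with 11 genes called in both fits. RFC4 was the single call lost, and the block added MCM7, CDT1, CDC45, GINS3, RFC2, RFC5, POLA2, POLE, RRM1, RRM2, CHAF1A and CCNE1. The gain was not seen without pair 1, in a fit of 8 libraries. No other pair was left out of the blocked fit, so whether this is particular to pair 1 was not tested. With the block and without control 1 and SRp55 siRNA 1, limma called 9 of the 42 higher, against 429 of all 13630 tested genes higher and 196 lower. POLE was the single one of the 12 added genes still called, while GINS1, GINS2, GINS4 and RFC4 were not called. Without control 1 alone, the fit with no block called 6 of the 42 (14.3%, against 1.83% of all tested genes), namely PCLAF, CDC6, RFC3, TK1, E2F1 and POLE, and the median log2 fold change was 0.28. Leaving out another single library gave 3 calls without control 2, control 3, control 5 or SRp55 siRNA 4, 5 without SRp55 siRNA 1, 2 or 3, 12 without SRp55 siRNA 5 and 21 without control 4. Of the 13630 tested genes, the fits with 3 calls had 177 to 220 higher and those with 5 calls had 215 to 318. The fit without SRp55 siRNA 5 had 670 higher and that without control 4 had 932, so the count of members moved with that of all genes. PCLAF, CDC6 and RFC3 were called in each of the 10 leave-one-out fits. The calls of MCM4, MCM5, ORC6, GINS1, GINS4 and RFC4 were made in 2 of these fits, those without control 4 and without SRp55 siRNA 5. GINS2 was not called without control 1, 2, 3, 5 or SRp55 siRNA 4, E2F1 not without control 2, 3, 5 or SRp55 siRNA 4, and TK1 not without control 2, 3, 5 or SRp55 siRNA 1, 2, 3 or 4. Their highest adjusted p in these fits lay between 0.067 for GINS2 and 0.12 for MCM5. On summed reads per M in place of RPKM sums, limma called 22 of the 42 (52.4%, against 7.3% of all tested genes), all 12 included. The other 10 were MCM7, CDC45, GINS3, PCNA, RFC5, POLA2, POLD1, POLE, RRM1 and CHAF1A. Below, a call without further name is that on RPKM without a block.

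**Figure D1:**
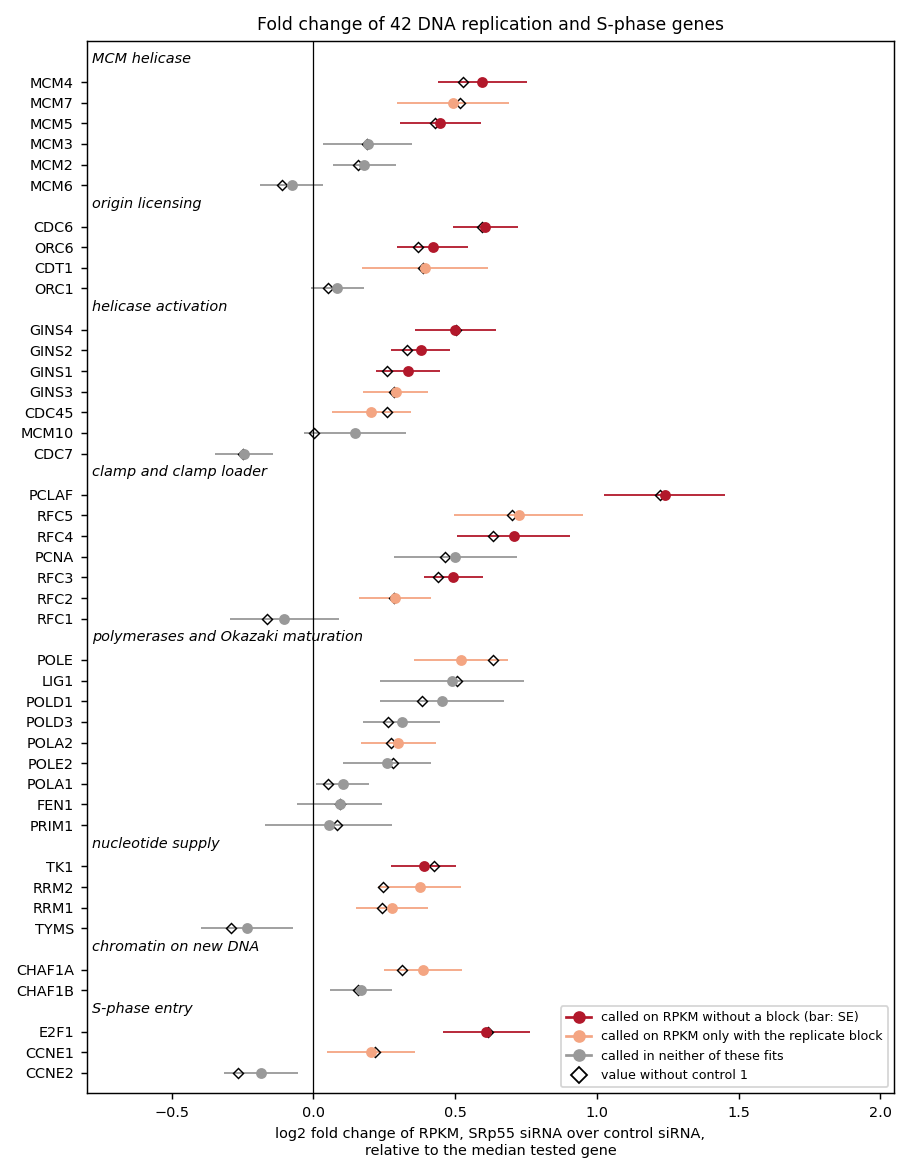
Log2 fold change of RPKM, SRp55 siRNA over control siRNA and relative to the median tested gene, for 42 DNA replication and S-phase genes in 8 role groups. Filled points are the values over 10 libraries with their SE, coloured by whether limma called the gene on RPKM, and open diamonds are the values without control 1. PCLAF lies farthest to the right at 1.24 and CDC7 farthest to the left at -0.25.

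The groups were also read without a test. In 12 of the 42 (28.6%), every SRp55 siRNA library lay above every control siRNA library, against 5.61% of all tested genes. In 0 of the 42 did every one lie below, but the share of all tested genes that did was not counted. That 0 is therefore not read as a result about these genes. The 12 were CDC6, GINS1, GINS2, GINS3, GINS4, PCNA, PCLAF, RFC3, RFC4, RFC5, TK1 and E2F1, of which 9 were also called by limma on RPKM without a block.

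Because these genes are classic E2F targets, the reference promoters were read for E2F words, and the stretches around the words are shown for 6 called genes. The words were TTTCGCGC, TTTGGCGC, TTTCCCGC and TTTGCCGC on either strand, in RefSeq windows of GRCh38.p14 that run from 250 bases before to 50 bases after each annotated start. Of the 42 genes, 37 had 47 such windows, and 20 of the 47 (42.6%) held a word, against 1164 of all 35116 windows (3.31%). CCAAT, the NF-Y box, was in 57.4% of the members' windows and 34.6% of all windows. TTTGAA, the CHR word of many G2/M genes, was in 2.13% and 15.2%. An E2F word stood in 6 of the 9 called genes with a window and in 14 of the 28 others, so uncalled members such as MCM6, CDC7 and TYMS held it too. Below, capitals mark the word, on the gene's own strand, with GCGC or GCGG first where the word reads on the opposite strand.
PCLAF, chr15:64381453-64381512, minus strand: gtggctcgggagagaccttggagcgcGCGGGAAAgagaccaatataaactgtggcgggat
CDC6, chr17:40287860-40287919, plus strand: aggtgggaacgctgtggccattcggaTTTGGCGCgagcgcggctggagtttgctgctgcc
RFC3, chr13:33818068-33818127, plus strand: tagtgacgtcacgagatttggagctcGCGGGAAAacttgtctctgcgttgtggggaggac
GINS2, chr16:85688952-85689011, minus strand: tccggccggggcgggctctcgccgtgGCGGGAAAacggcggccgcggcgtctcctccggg
GINS1, chr20:25407652-25407711, plus strand: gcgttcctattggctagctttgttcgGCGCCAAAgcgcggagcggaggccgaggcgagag
E2F1, chr20:33686372-33686444, minus strand: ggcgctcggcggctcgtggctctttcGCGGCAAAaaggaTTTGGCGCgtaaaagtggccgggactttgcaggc
The words began 45 bases before the start in PCLAF, 55 before it in RFC3 and 31 before it in GINS2, and 8 bases into the transcript in CDC6. Words on opposite strands can share letters, and a match describes the letters of the reference, not binding in these cells.

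In the clamp group, 3 of 7 genes rose and none fell. PCLAF (ENSG00000166803.5, GRCh37 chromosome 15, 64657193 to 64679886), a small PCNA-binding protein that is loaded at forks, had the largest log2 fold change of the 42. It stood at 107, 109.8, 110.3, 123 and 66.2 RPKM in SRp55 siRNA libraries 1 to 5, against 40.3, 27.9, 39.8, 59.9 and 35.6 RPKM in control siRNA libraries 1 to 5. SRp55 siRNA 5 was the low library of its group and control 4 the high one of the other, and the groups did not overlap. PCLAF shares 8788 bases on the same strand with ENSG00000259316, which was at 7.13 RPKM in SRp55 siRNA and 1.71 RPKM in control siRNA libraries on average (limma adjusted p = 0.40), so some of its reads are uncertain. PCLAF had a log2 fold change of 1.24 (SE 0.21, limma adjusted p = 0.0080, 0.023 without control 1).

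RFC3 (ENSG00000133119.8, chromosome 13, 34392186 to 34540695) and RFC4 (ENSG00000163918.6, chromosome 3, 186507669 to 186524847) encode small subunits of the clamp loader. RFC3 was at 43.1, 39.5, 39.2, 42.1 and 34.1 RPKM in SRp55 siRNA libraries, against 23.9, 27.4, 28.6, 26.7 and 23.1 RPKM in control siRNA libraries. All 5 SRp55 siRNA values were higher than all 5 control values, with a log2 fold change of 0.49 (SE 0.10, limma adjusted p = 0.011, 0.032 without control 1). RFC4 was at 100.1, 52.3, 75.3, 58.7 and 52.0 RPKM in SRp55 siRNA libraries, against 32.4, 35.5, 34.6, 51.6 and 33.9 RPKM in control siRNA libraries. The groups did not overlap, but control 4 came within 1 RPKM of the lowest SRp55 siRNA library, and the log2 fold change of 0.71 (SE 0.20, limma adjusted p = 0.043) had an adjusted p of 0.056 with the replicate block and 0.094 without control 1.

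The other 4 clamp genes were not called on RPKM without a block. RFC5 and RFC2, further small subunits, had log2 fold changes of 0.72 and 0.29 and were called with the replicate block (limma adjusted p = 0.046 and 0.037), at 0.061 and 0.10 without it. PCNA (ENSG00000132646.6, chromosome 20, 5095599 to 5107272), the ring itself and the gene with the highest mean RPKM of the 42, had a log2 fold change of 0.50 (SE 0.22, limma adjusted p = 0.14, 0.094 with the block and 0.041 on summed reads). Without SRp55 siRNA 1 the value was 0.32, and 0.29 with the block and without pair 1. RFC1, the large subunit, had -0.10 (adjusted p = 0.99), and its value ran from -0.22 to 0.02 over the settings tried. The group thus held both the highest value of the 42 and one of the 5 below the median tested gene.

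Among the origin licensing genes, CDC6 and ORC6 rose, which made 2 of 4. CDC6 (ENSG00000094804.5, chromosome 17, 38443885 to 38459171), the ATPase that brings the helicase to ORC, was at 38.1, 38.9, 40.4, 41.5 and 47.5 RPKM in SRp55 siRNA libraries, against 25.7, 22.3, 30.8, 23.7 and 22.8 RPKM in control siRNA libraries. The lowest SRp55 siRNA value was above the highest control value, with a log2 fold change of 0.61 (SE 0.11, limma adjusted p = 0.0080, 0.022 without control 1). ORC6 (ENSG00000091651.4, chromosome 16, 46723555 to 46732306), a subunit of the origin recognition complex, was at 29.5, 33.6, 30.0, 35.8 and 24.4 RPKM in SRp55 siRNA libraries, against 19.3, 22.3, 19.6, 24.5 and 19.4 RPKM in control siRNA libraries. Control 4 stood at the level of SRp55 siRNA 5, so the groups met there, with a log2 fold change of 0.42 (SE 0.12, limma adjusted p = 0.037, 0.084 without control 1). CDT1, the partner of CDC6 in loading, had 0.39 (adjusted p = 0.22, 0.046 with the replicate block), and ORC1 had 0.08 (adjusted p = 0.25).

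For the MCM helicase, 2 of 6 subunits rose. MCM4 was at 264, 228, 253, 251 and 179.8 RPKM in SRp55 siRNA libraries, against 127, 142, 143, 193 and 119 RPKM in control siRNA libraries. MCM5 (ENSG00000100297.10, chromosome 22, 35796056 to 35821423) was at 98.4, 112, 99.5, 109 and 78.5 RPKM in SRp55 siRNA libraries, against 68.1, 65.2, 67.0, 85.1 and 53.2 RPKM in control siRNA libraries. In both genes control 4 lay above SRp55 siRNA 5 and below the other SRp55 siRNA libraries. The log2 fold changes were 0.60 (SE 0.16, limma adjusted p = 0.031, 0.071 without control 1) for MCM4 and 0.45 (SE 0.14, limma adjusted p = 0.049, 0.094 without control 1) for MCM5. MCM7 had 0.49 and was called on summed reads and with the replicate block (limma adjusted p = 0.017 and 0.021, 0.11 on RPKM without a block), while MCM2, MCM3 and MCM6 had 0.18, 0.19 and -0.08 (adjusted p = 0.16, 0.30 and 0.89). The 6 subunits sit in 1 ring, and on the RPKM scale their means ran from 70.0 for MCM6 to 235 for MCM4 in SRp55 siRNA libraries, against 66.5 for MCM2 to 145 for MCM4 in control siRNA libraries. These are sums over transcripts, which short transcripts raise, so they do not compare the amounts of the subunits. ENST00000523944.1 of MCM4, with 4105 bases, held 75.3% of the gene's reads in SRp55 siRNA and 80.6% in control siRNA libraries. It was at 77.2 and 57.7 RPKM in the same order.

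Of the 7 genes that activate the helicase, GINS1, GINS2 and GINS4 rose, each a subunit of the GINS complex. GINS2 (ENSG00000131153.4, chromosome 16, 85709804 to 85723679) was at 35.0, 31.0, 29.5, 35.8 and 35.6 RPKM in SRp55 siRNA libraries, against 22.0, 23.9, 23.2, 27.4 and 21.9 RPKM in control siRNA libraries. GINS4 was at 19.5, 12.7, 15.5, 14.4 and 12.5 RPKM in SRp55 siRNA libraries, against 10.2, 11.2, 8.42, 9.88 and 7.97 RPKM in control siRNA libraries. GINS1 (ENSG00000101003.8, chromosome 20, 25388363 to 25433264) was at 15.6, 14.8, 13.9, 19.3 and 14.6 RPKM in SRp55 siRNA libraries, against 9.82, 11.4, 11.9, 12.4 and 11.2 RPKM in control siRNA libraries. In all 3 genes the groups did not overlap. Their log2 fold changes were 0.38 (SE 0.10, limma adjusted p = 0.026) for GINS2, 0.50 (SE 0.14, adjusted p = 0.037) for GINS4 and 0.33 (SE 0.11, adjusted p = 0.046) for GINS1, with adjusted p-values of 0.062, 0.062 and 0.10 without control 1. With median-of-ratios scaling limma gave an adjusted p of 0.052 for GINS2 and 0.12 for GINS1. GINS3, the fourth subunit, had 0.29 with groups that did not overlap either, and limma called it with the replicate block (adjusted p = 0.075 without it, 0.021 with it) and on summed reads (0.034).

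The remaining activators did not move together. CDC45, which joins MCM and GINS in the active helicase, had a log2 fold change of 0.20 (limma adjusted p = 0.22, 0.012 on summed reads and 0.041 with the replicate block). MCM10, which helps the helicase start, had 0.15 (adjusted p = 0.44), and 0.00 without control 1. CDC7, the kinase that phosphorylates MCM, was at 21.3, 19.2, 17.6, 20.6 and 15.98 RPKM in SRp55 siRNA libraries, against 22.1, 19.99, 20.9, 21.3 and 19.5 RPKM in control siRNA libraries. It was lower in the SRp55 siRNA library of all 5 pairs, with a log2 fold change of -0.25 that limma did not call (adjusted p = 0.47).

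**Figure D2:**
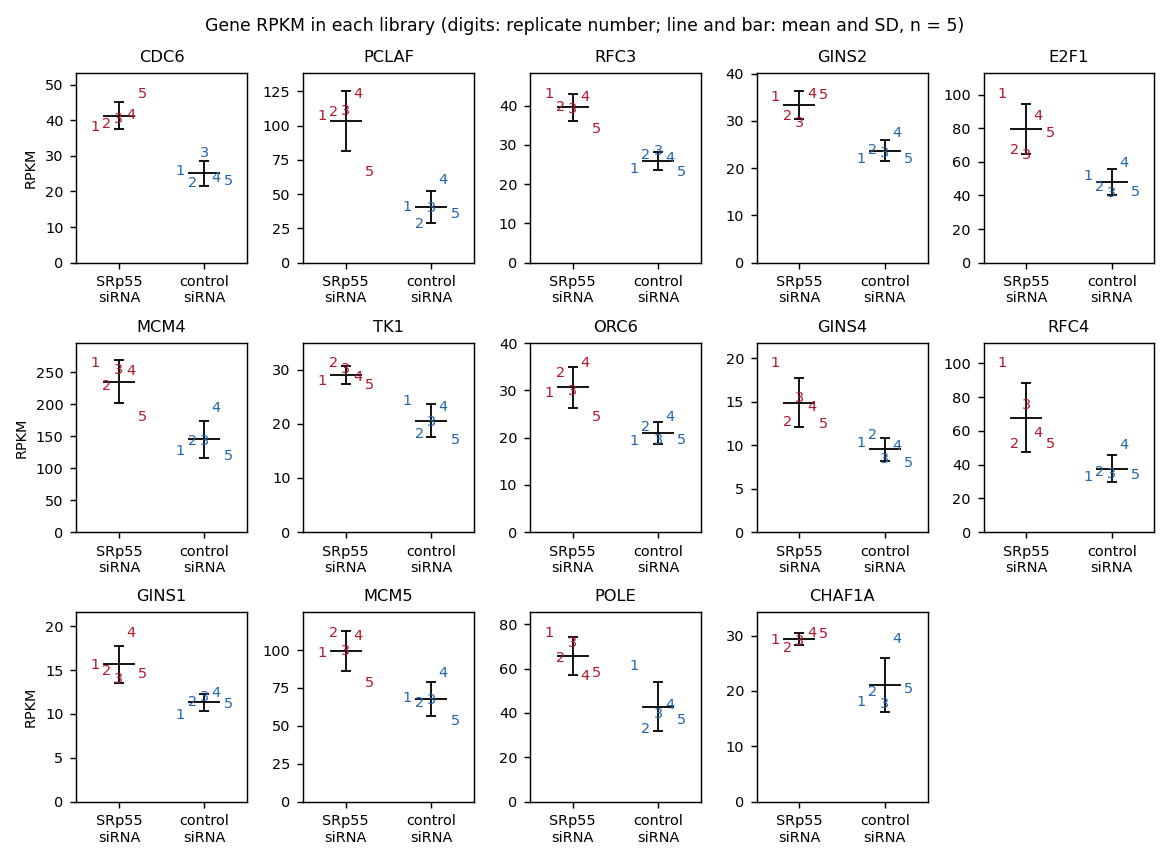
RPKM in each of 10 libraries for the 12 genes called higher on RPKM without a block and for POLE and CHAF1A, the genes with the smallest p in their role groups. Digits are replicate numbers, SRp55 siRNA in red on the left and control siRNA in blue on the right, with the mean and SD (n = 5); PCLAF shows SRp55 siRNA 5 at 66.2 RPKM and control 4 at 59.9 RPKM as the nearest libraries of the 2 groups.

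E2F1 was the called gene of the S-phase entry group, 1 of 3. E2F1 (ENSG00000101412.9, chromosome 20, 32263489 to 32274210), the transcription factor that drives many of these genes, was at 100.8, 67.4, 64.4, 87.7 and 77.4 RPKM in SRp55 siRNA libraries, against 51.7, 45.2, 41.2, 59.4 and 42.1 RPKM in control siRNA libraries. Each SRp55 siRNA library was above the highest control, control 4, with a log2 fold change of 0.61 (SE 0.15, limma adjusted p = 0.026, 0.0497 without control 1). The cyclin E genes, whose products activate CDK2 at S-phase entry, were not called: CCNE1 had 0.20 (adjusted p = 0.27, 0.046 with the replicate block) and CCNE2 had -0.19 (adjusted p = 0.77). CCNE2 shares 1977 bases of its span with INTS8 on the opposite strand, and whether the counting used strand is not given in the sources used here.

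Among the enzymes of nucleotide supply, 1 of 4 rose. TK1 (ENSG00000167900.7, chromosome 17, 76170160 to 76183314), the thymidine kinase of the salvage route, was at 27.9, 31.2, 30.1, 28.7 and 27.2 RPKM in SRp55 siRNA libraries, against 24.2, 18.2, 20.3, 23.1 and 17.0 RPKM in control siRNA libraries. The groups did not overlap, and TK1 had a log2 fold change of 0.39 (SE 0.12, limma adjusted p = 0.036, 0.038 without control 1). RRM1 and RRM2, the subunits of ribonucleotide reductase, had 0.28 and 0.37 and were called with the replicate block (limma adjusted p = 0.11 and 0.086 without it, 0.028 and 0.026 with it), and RRM1 also on summed reads (adjusted p = 0.033). TYMS, thymidylate synthase, had -0.23 (adjusted p = 0.69), at 50.5 ± 8.71 RPKM in SRp55 siRNA libraries and 55.4 ± 11.8 RPKM in control siRNA libraries (SD, n = 5 each). TYMS overlaps ENOSF1 on the opposite strand by 1036 bases, so its reads are uncertain in the same way.

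None of the 9 polymerase and Okazaki genes was called on RPKM without a block, POLE, POLD1 and POLA2 were called on summed reads (limma adjusted p = 0.0088, 0.028 and 0.043), and all 9 had a log2 fold change above the median tested gene. POLE (ENSG00000177084.12, chromosome 12, 133200348 to 133263951), the catalytic subunit of the leading-strand polymerase, had the smallest p of the group. It was at 76.2, 64.9, 71.7, 56.5 and 57.8 RPKM in SRp55 siRNA libraries, against 61.3, 32.9, 39.6, 43.4 and 36.9 RPKM in control siRNA libraries. Control 1 was the high library of its group, above SRp55 siRNA 4 and 5. POLE had a log2 fold change of 0.52 (SE 0.17, limma adjusted p = 0.054), and it was called with the replicate block (adjusted p = 0.026), after median-of-ratios scaling (0.041) and without control 1 (0.63, adjusted p = 0.022).

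POLA2, a subunit of the priming polymerase, had 0.30 and was called with the replicate block (limma adjusted p = 0.10 without it, 0.042 with it). POLD1 and POLD3, subunits of the lagging-strand polymerase, had 0.45 and 0.31 (adjusted p = 0.17 and 0.10), LIG1, which seals Okazaki fragments, had 0.49 (adjusted p = 0.20), and POLE2 had 0.26 (adjusted p = 0.20). POLA1, FEN1 and PRIM1 had 0.10, 0.09 and 0.05 (adjusted p = 0.22, 0.47 and 0.72). FEN1, the flap nuclease, overlaps the annotated span of FADS2 on the same strand by 4265 bases, so its RPKM is uncertain.

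The chaperone that puts histones on new DNA was measured through 2 subunits, and neither was called on RPKM without a block. CHAF1A (ENSG00000167670.11, chromosome 19, 4402659 to 4445015) was at 29.1, 27.8, 29.0, 30.5 and 30.3 RPKM in SRp55 siRNA libraries, against 18.03, 19.9, 17.6, 29.4 and 20.4 RPKM in control siRNA libraries. Control 4 stood among the SRp55 siRNA libraries and the other 4 controls below them. CHAF1A had a log2 fold change of 0.39 (SE 0.14, limma adjusted p = 0.062, 0.040 with the replicate block), and it was called on summed reads at 0.53 (limma adjusted p = 0.0016). CHAF1B had 0.17 (adjusted p = 0.17).

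In each same-numbered pair, most of the 42 genes were higher in the SRp55 siRNA library than in its control, measured against the median gene of that pair. The number was 40 in pair 1, 32 in pair 2, 31 in pair 3, 39 in pair 4 and 36 in pair 5, and the median log2 difference was 0.42, 0.24, 0.23, 0.28 and 0.32 in the same order. Higher in all 5 pairs were 29 of the 42, against 14.9% of all tested genes. CDC7 was higher in none, TYMS in 1, and MCM6, MCM10, RFC1, PRIM1 and CCNE2 in 2.

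Summed over the 42 genes, RPKM came to 3262, 2564, 2572, 2935 and 2350 in SRp55 siRNA libraries 1 to 5, against 1883, 1789, 1849, 2381 and 1735 in control siRNA libraries 1 to 5, so control 4 reached the level of SRp55 siRNA 5. In reads per M assigned reads the sums were 6241, 5688, 5592, 6057 and 6192 for SRp55 siRNA, against 4371, 4856, 4859, 4989 and 4979 for control siRNA, and the groups did not overlap. Control 1 was the lowest library on that scale, and it was the lowest control for 19 of the 42 genes in RPKM relative to the library's median gene. Its part in the pair 1 difference was not tested.

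**Figure D3:**
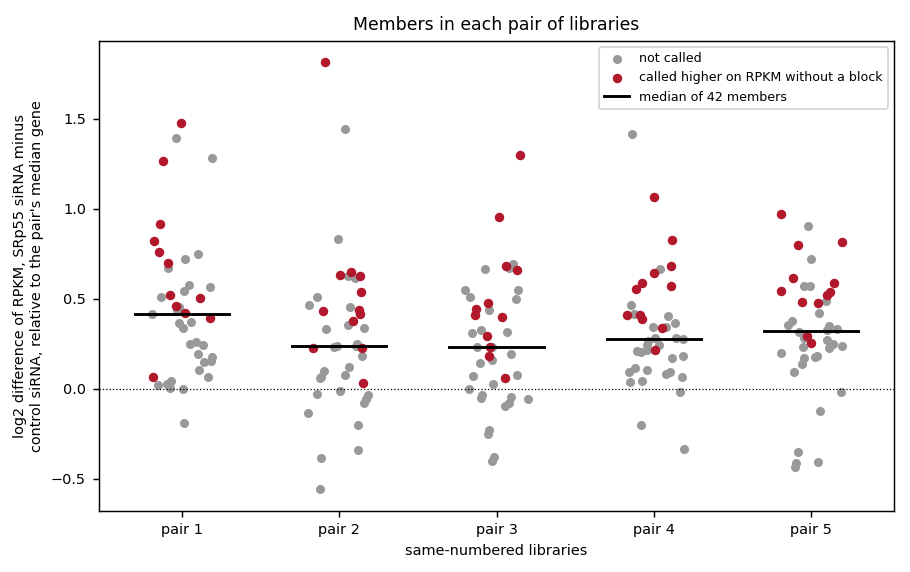
Log2 difference of RPKM, SRp55 siRNA minus control siRNA, for 42 genes in each of 5 same-numbered pairs, relative to the pair's median gene. Red points are the 12 genes called higher on RPKM without a block, grey points the other 30, and the line is the median, which runs from 0.23 in pair 3 to 0.42 in pair 1.

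A few genes were uneven among the SRp55 siRNA libraries, and the transcript values show where. PCNA was at 725, 330.3, 333, 392 and 302 RPKM in SRp55 siRNA libraries, against 251, 254, 267, 290.4 and 231 RPKM in control siRNA libraries. Its main coding transcript, PCNA-201, held 97.0% of its RPKM in SRp55 siRNA and 95.9% in control siRNA libraries, so the high value of SRp55 siRNA 1 lies in that transcript. PRIM1, the small primase subunit, was at 76.4, 33.6, 35.3, 34.4 and 34.6 RPKM in SRp55 siRNA libraries, against 41.9, 38.6, 32.8, 40.4 and 28.5 RPKM in control siRNA libraries. SRp55 siRNA 1 stood apart there as well, while SRp55 siRNA 2 to 5 lay within the range of the controls. Without SRp55 siRNA 1 the log2 fold change of PRIM1 was -0.13, against 0.05 with it.

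RFC5 (ENSG00000111445.9, chromosome 12, 118451393 to 118470935) was at 65.7, 32.7, 31.3, 67.7 and 33.9 RPKM in SRp55 siRNA libraries, against 24.3, 23.4, 23.8, 25.6 and 23.9 RPKM in control siRNA libraries. The difference among SRp55 siRNA libraries rests on RFC5-208, a transcript of 820 bases that was listed at 42.2 and 40.5 RPKM in SRp55 siRNA 1 and 4 and at 0 in the other 8 libraries. An exact 0 can be a failed estimate of the authors' assignment of reads to transcripts. In summed reads, which weigh short transcripts less, the log2 fold change of RFC5 was 0.47 (limma adjusted p = 0.0059), against 0.72 in RPKM.

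**Figure D4:**
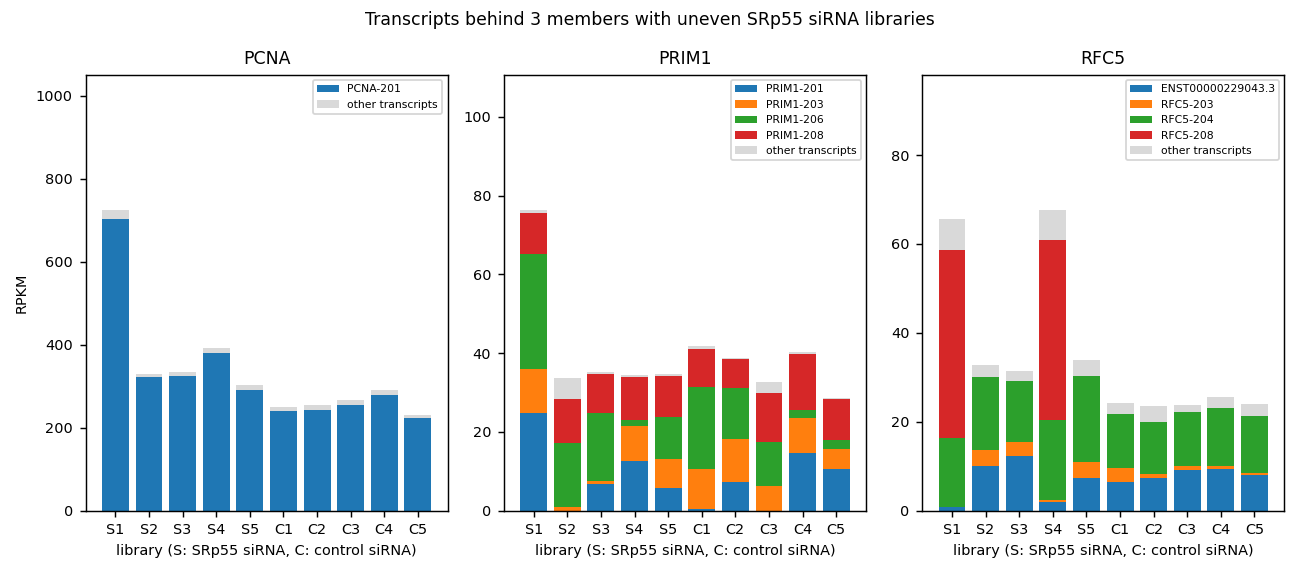
RPKM of PCNA, PRIM1 and RFC5 in SRp55 siRNA libraries (S1 to S5) and control siRNA libraries (C1 to C5), stacked by transcript, with grey for the remaining transcripts. PCNA and PRIM1 are highest in S1, and the red part of RFC5, the transcript RFC5-208, is present in S1 and S4 only.

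SRp55 is a splicing factor, so transcript usage, the percent of a gene's RPKM held by each of its transcripts, was tested too. Of 36 of these genes with at least 2 testable transcripts, limma's diffSplice called 0 (adjusted p under 0.05, and usage of some transcript moved by 10 or more percentage points), against 34 of 9915 genes (0.343%). At an unadjusted p under 0.05 it counted 5 of the 36 (13.9%) and 810 of the 9915 (8.17%). The smallest p-values belonged to ORC6, RFC2 and GINS3, with limma adjusted p = 0.35, 0.37 and 0.43. ENST00000055077.3 of RFC2 held 35.6% of RFC2 in SRp55 siRNA and 53.1% in control siRNA libraries, and ENST00000318129.5 of GINS3 held 40.0% and 57.1% in the same order.

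By annotated class, transcripts marked retained_intron held 17.1% ± 1.84 of the summed RPKM of the 42 genes in SRp55 siRNA libraries and 14.9% ± 1.57 in control siRNA libraries (SD, n = 5 each), with ranges of 13.9 to 18.6% and 13.4 to 17.3% that overlapped. Transcripts marked for nonsense-mediated decay held 4.51% ± 0.99 and 4.81% ± 0.63, and coding transcripts 67.1% ± 2.78 and 69.2% ± 2.53. Transcripts without a matched class, ENST00000523944.1 of MCM4 among them, held 8.46% ± 0.75 and 8.20% ± 1.14. All of these are shares of RPKM, in which short transcripts weigh more than in reads. In PCLAF, the retained_intron transcript PCLAF-204 held 34.1% of the RPKM in SRp55 siRNA and 28.6% in control siRNA libraries, the coding transcripts sharing most of the rest.

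Other genes of the replication program, written as a list of 63, were read in the same fit. This list and the regulator, p53, mitotic and repair lists below were written with earlier results of these data known. Their counts are therefore description and not independent support. Limma called 15 of the 63 higher and 0 lower, with a median log2 fold change of 0.31, and 24 higher with the replicate block and 7 without control 1. For this list and those below, the share of all tested genes called higher was 3.76%, 9.39% with the block and 1.83% without control 1. CDC25A, the phosphatase that frees CDK2, was at 19.6 ± 1.78 RPKM in SRp55 siRNA and 11.7 ± 0.72 RPKM in control siRNA libraries (SD, n = 5 each), a log2 fold change of 0.61 (limma adjusted p = 0.0034). DTL, the adaptor that sends CDT1 to destruction at PCNA, and CLSPN, the checkpoint mediator at forks, had 0.55 and 0.54 (limma adjusted p = 0.0045 and 0.0071).

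Among 35 tested regulators of the E2F, RB and CDK step, 7 rose and 1 fell, CDKN2C, with 11 and 2 under the replicate block and 4 and 1 without control 1. The lists overlap: CDC25A is also on the replication list above and is counted in both. CDKN1A is on this list and the p53 list, and RRM2B is on the replication and p53 lists. E2F7, a repressor of E2F targets that is itself one, and MYBL2 had log2 fold changes of 0.69 and 0.79 (limma adjusted p = 0.0025 and 0.0055). RB1 had 0.09 (adjusted p = 0.37). CDKN1A, which encodes the CDK inhibitor p21, was at 10.5 ± 2.73 RPKM in SRp55 siRNA and 5.99 ± 1.77 RPKM in control siRNA libraries (SD, n = 5 each), with a log2 fold change of 0.66 (limma adjusted p = 0.062, 0.0071 with the replicate block). Of 14 tested p53 targets that restrain the cycle, 0 rose and 1, ZMAT3, fell by 0.76 on the log2 scale (limma adjusted p = 0.015), against 3 higher and 1 lower with the block.

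Of 61 mitotic and G2/M genes, 12 rose and 0 fell, and 33 were called higher with the replicate block and 5 without control 1. Of all tested genes, 3.76% rose, 9.39% with the block and 1.83% without control 1. KIF23, CENPK and CEP55, which act in cytokinesis and at the kinetochore, had log2 fold changes of 0.79, 0.57 and 0.54 (limma adjusted p = 0.010, 0.015 and 0.019). MKI67, the proliferation antigen, had 0.45 (limma adjusted p = 0.041, 0.082 without control 1, 0.0505 on summed reads and 0.11 after median-of-ratios scaling), at 11.7 ± 1.58 RPKM in SRp55 siRNA and 7.81 ± 1.29 RPKM in control siRNA libraries (SD, n = 5 each). Of 59 repair and checkpoint genes, 6 rose and 0 fell, and 12 were called higher with the block and 3 without control 1, to be read beside the same shares of all tested genes. XRCC2, RAD51C and FANCM had 0.41, 0.62 and 0.68 (limma adjusted p = 0.011, 0.017 and 0.024), and XRCC2 had an adjusted p of 0.063 with median-of-ratios scaling. Leave-one-out fits called CEP55 in 8 of 10, RAD51C in 9, FANCM in 6 and MKI67 in 4, and the other genes named from these lists in all 10, apart from RB1 in 0 and CDKN1A in 1.

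Markers of cell types were read in the same fits. Of 16 beta cell markers, SLC30A8 rose, UCN3 fell (limma adjusted p = 0.022, 0.054 without control 1) and 14 were not called. On summed reads 1 was called higher and 5 lower, with the replicate block 3 and 4, and without control 1 they were 1 and 0. Of all 13630 tested genes, 995 were called higher and 1345 lower on summed reads. With the block the counts over all genes were 1280 and 504, and without control 1 they were 250 and 80. The summed RPKM of the beta cell markers was 18692 to 28791 in SRp55 siRNA and 13126 to 25402 in control siRNA libraries. None of the 6 tested markers of other islet cells, the 3 of acinar and duct cells and the 2 of mesenchymal, endothelial and immune cells was called in the fit without a block, and IRX2 of the islet list was called higher with it. Their summed RPKM ran from 1483 to 2973, 42.1 to 99.7 and 31.6 to 52.4 in SRp55 siRNA libraries and from 1205 to 2760, 39.5 to 89.8 and 34.4 to 51.1 in control siRNA libraries, in the order of these lists. The share of reads assigned was higher in the SRp55 siRNA library of 4 of the 5 pairs, and its part in the member values was not tested.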

How the data were processed

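PolyA RNA of 10 EndoC-βH1 libraries was sequenced on an Illumina HiSeq instrument, per the labels' protocols. TopHat and GRCh37 (hg19) are named in the submitters' processing notes, but no version, read counter, annotation release or strand setting is given in the sources used here. The deposited files list estimated reads and RPKM per transcript in 1 text field, the other values being exon structure, per the file headers and content. Gene values were sums over transcripts of RPKM, and symbols and biotypes came from GENCODE 44 by Ensembl ID. Genes averaging 0.5 RPKM or more were tested with limma 3.58.1 (R 4.3.3, trend and robust) on log2(RPKM + 0.5), which understates changes of low genes, at a Benjamini-Hochberg adjusted p of 0.05. The median tested gene shifted by 0.11 on the log2 scale (0.01 after median-of-ratios scaling), and printed fold changes are relative to it, while p-values test the values as deposited. Deviations of same-numbered libraries from their group means correlated at 0.13 to 0.41, those of others at up to 0.12, so a replicate block was fitted as well; the preparations were independent, per the series' design text. Per-library values are given for called members and the smallest p of each role, then for up to 3 called genes of each other list with CDKN1A, RB1 and MKI67. Members and lists were chosen with earlier results of these data known. Genes on some chromosomes have no sequence shown.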

Additional observations from a re-analysis of the deposited data

Results flagged for a closer look

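In 8 of 84 groups of 5 libraries, 1 library of a member stood apart from the other 4, with a gap of over 0.71 of the group's range; chance flags about 1 in 20 groups. SRp55 siRNA 1 was the high library for PCNA at 725.1 RPKM (others 302 to 392) and for PRIM1 at 76.4 RPKM (others 33.6 to 35.3), and in reads per M it was high too, at 1010 for PCNA (others 520 to 583) and 89.3 for PRIM1 (others 41.7 to 50.1). PCLAF was at 66.16 RPKM in SRp55 siRNA 5, below the others at 107 to 123, and POLE2 was at 20.61 RPKM in SRp55 siRNA 3 (others 12.0 to 14.3). Control 4 was the high library for the other 4 genes: RFC4 at 51.57 RPKM (others 32.4 to 35.5), POLD3 at 18.76 (others 11.2 to 12.9), TYMS at 76.39 (others 48.9 to 52.1) and CHAF1A at 29.39 (others 17.6 to 20.4). In reads per M, control 4 was within the range of the other controls for POLD3, at 45.1 against 36.4 to 47.6, and next to it for RFC4, at 54.3 against 40.6 to 54.1. Why these libraries stood apart was not tested.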

How the results depend on the processing

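No member called in the fit without a block changed direction in any setting tried. The 12 members called higher became 23 with the replicate block, 22 on summed reads, and 24 on summed reads with median-of-ratios scaling, or 30 when that scaling was joined with the replicate block. Over all tested genes, the 513 called higher became 1280, 995, 1140 and 2478 in the same order. The last 2 settings were chosen after seeing the data. With the replicate block and without pair 1 the count was 9, and GINS1, GINS2, GINS4 and RFC4 were not called. The count ran from 3 to 21 over fits that left out 1 library, and that of all tested genes called higher from 177 to 932. The 0 called lower became 2, RFC1 and TYMS, with the replicate block on summed reads with median-of-ratios scaling. In that setting 2542 of all 13630 tested genes were called lower. Without the filter on low values the median log2 fold change of the members was 0.397, as the median tested gene then differs. The 684 genes called among all tested became 1784 with the replicate block, 2340 on summed reads, 2359 on summed reads with median-of-ratios scaling, 5020 when that was joined with the replicate block, 259 to 1085 over the leave-one-out fits, and 625 with the block and without pair 1. Over 58 named genes and 22 settings, 1104 values kept their call, 78 gained one and 94 lost it. The 0 members with a usage switch stayed 0 in each setting. Without the low-value filter MCM5, GINS1 and RFC4 lost their calls (limma adjusted p = 0.063, 0.052 and 0.062). The search for a PCNA-binding box was not run. The lowest read sum of a member in a library was 1046.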
